A study of Mus musculus with 12 samples.

Results

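The unfolded protein response and the ATF4 arm of the integrated stress response were described in murine ovarian cancer cells through 35 genes chosen by symbol, out of 57010 genes listed in the count files. The genes were listed by name for their role, with earlier results of these data known, and all 35 were found and passed the filter on low counts in every comparison. The genes were placed in 8 groups by role, from the stress sensors to the chaperones and enzymes that the response controls. RNA was sequenced from ID8 and 28-2 cells, which are ovarian cancer lines of the mouse, and from each line the study had a control with an empty vector and a derivative with vectors for both clusters of miR-200 microRNAs. The groups ID8EV and 28-2EV were infected with a lentivirus encoding EGFP, a puromycin resistance gene and mCherry driven by the EF1A promoter, and were kept in 30 µg/ml puromycin. ID8-200f and 28-2-200f cells had received one lentivirus for the miR-200c/141 cluster (with mCherry and hygromycin resistance) and another for the miR-200b/200a/429 cluster (with GFP and puromycin resistance), both driven by the CMV promoter. ID8-200f cells were kept in 40 µg/ml puromycin with 50 µg/ml hygromycin, and 28-2-200f cells in 60 µg/ml puromycin with 1000 µg/ml hygromycin. All cells grew as flat cultures, and each of the 4 groups had 3 libraries. The sources call the 3 samples of a group independent but do not say whether they were separate infections, so the p-values below measure only the spread between these samples. The vectors and the drug doses changed together in both lines, so their effects cannot be told apart.

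The endoplasmic reticulum (ER) folds secreted and membrane proteins, and misfolded proteins in it are sensed by the kinase PERK (gene Eif2ak3), the kinase and RNase IRE1α (Ern1) and the membrane-bound transcription factor ATF6. ATF6, once cleaved, and XBP1, whose mRNA is spliced by IRE1α, raise the transcription of chaperones and of the machinery that extracts and destroys misfolded proteins (ER-associated degradation). PERK, like the other kinases of the integrated stress response, phosphorylates the translation initiation factor eIF2α, which lowers protein synthesis in general but favours translation of ATF4. ATF4 then raises genes for amino acid synthesis and uptake, for tRNA charging and for feedback on the response itself. ATF4 is controlled mainly at translation and XBP1 at splicing, neither of which a gene-level mRNA count measures.

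Total counts per library were 16390953 to 23063875. The epithelial keratins Krt8, Krt18 and Krt19 were at 555 CPM (counts scaled to the total of the library and normalised with TMM) or more in every library. They made up most of the summed level of 6 epithelial markers. That level was 3037 to 3364 CPM in ID8EV, 3938 to 4322 CPM in ID8-200f, 2837 to 3257 CPM in 28-2EV and 5080 to 7198 CPM in 28-2-200f, so that it was higher with the 200f vectors in both lines without overlap. Krt7 was at 1.81 to 2.26 CPM in ID8EV and at most 1.68 CPM in 28-2EV, and in 28-2EV Cdh1 was under 1 CPM and Epcam at 0. The immune markers Cd3e and Itgam, the 3 erythroid markers and endothelial Cdh5 were at 0 in every library. Endothelial Pecam1 was detected in every library, at 0.408 to 3.18 CPM, and endothelial Kdr and Tek in some, at most 0.170 CPM. The summed level of 5 fibroblast markers, each detected in every group, was 465 to 516 CPM in ID8EV, 118 to 169 CPM in ID8-200f, 84.2 to 479 CPM in 28-2EV and 229 to 391 CPM in 28-2-200f. In 28-2 most of that sum was Dcn, at 66.0 to 451 CPM in 28-2EV and 224 to 387 CPM in 28-2-200f. Col1a1 was at 5.65 to 8.70 CPM in 28-2EV and 2.01 to 3.16 CPM in 28-2-200f. Pdgfra was at 8.02 to 12.8 CPM and 1.54 to 2.43 CPM, so that both were lower without overlap. Col3a1 and Acta2 overlapped between the 28-2 groups, and Acta2 was at 0 in 28-2-200f replicates 1 and 3. The summed level of 5 mesothelial and ovarian surface markers, also each detected in every group, was 3013 to 3909 CPM in ID8EV and 1678 to 1886 CPM in ID8-200f. In 28-2 the sums overlapped, at 1419 to 2185 CPM in 28-2EV and 1491 to 2266 CPM in 28-2-200f. Upk3b, Lrrn4, Wt1 and Upk1b were lower in ID8-200f without overlap. Msln went the other way, at 363 to 371 CPM in ID8EV and 597 to 620 CPM in ID8-200f. Transcripts of the mitochondrial genome took 1.28% to 1.77% of counts in ID8EV and 0.765% to 1.22% in ID8-200f, again without overlap. The part of these markers and of the mitochondrial share in the results below was not tested. The 5 genes of the miR-200 clusters had 0 counts in every library, so these counts hold no measure of the vectors' miRNAs. Replicates lay close together in ID8 and far apart in 28-2EV, as given below with the results that it touches.

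The miRNAs that the vectors encode are shown first, since they define the groups. Their mature 3p strands, taken from RefSeq (GRCm38.p6), fall into 2 groups that share a seed, the bases 2 to 8 that pair with target mRNAs and that are in capitals here.
mmu-miR-200b-3p: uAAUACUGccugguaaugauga
mmu-miR-200c-3p: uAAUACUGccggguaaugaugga
mmu-miR-429-3p: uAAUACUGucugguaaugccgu
mmu-miR-200a-3p: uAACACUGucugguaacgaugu
mmu-miR-141-3p: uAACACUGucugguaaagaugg
The 2 seeds differ at one base. A match to either seed was present in the longest annotated 3′UTR (GENCODE mouse M21) of 10 of the 35 genes, or 28.6%, against 30.4% of all genes tested in ID8. The share of the members was thus near that of genes in general, with a median 3′UTR length of 844 bases for the members and 1194 bases for all genes. A match is a description of the letters, not a shown target. Of the 10 genes with a match, 4 were lower (Sesn2, Dnajb9, Dnajc3 and Syvn1) and 2 higher (Vldlr and Psat1) in ID8-200f at an adjusted p under 0.05. Of 3502 tested genes with a match, 21.8% were lower and 18.2% higher, so the 2 of 10 members that were higher are near that share. The 4 of 10 that were lower (40.0%) are above that share but near the 37.1% of all 35 members that were lower. Canx had 2 matches and Dnajc3 had 3. The sites of Dnajb9 (chromosome 12, base 1067 of a 3′UTR of 1398 bases), Sesn2 (chromosome 4, base 1616 of 1687) and Vldlr (chromosome 19, base 244 of 5094) are shown because these genes had the largest changes among those with a match, with 30 bases each and the match in capitals.
Dnajb9: aacctgatcttCAGTGTTgtcattttatta
Sesn2: ggaagggcatcCAGTGTTaaagtgcagaaa
Vldlr: gagcccctagaCAGTATTgccatctctggc

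Promoter sequences are shown because the members that moved together in ID8 are known for shared elements there. RefSeq windows (GRCm38.p6, 250 bases before to 50 after the start of a gene, 32851 windows) were available for 32 of the 35 genes, the exceptions being Slc7a5, Manf and Atf6. Both strands were searched for 4 elements, and only bases before the start site are printed, with each element in capitals and no element overlapping another. The ER stress element (CCAAT, 9 bases of any kind, then CCACG), which binds NF-Y together with cleaved ATF6, was present in 8 of the 32 genes, against 0.119% of all windows. Those genes were Hspa5, Hsp90b1, Dnajc3, Pdia6, Calr, Canx, Creld2 and Syvn1. The promoter of Hspa5, the gene of the ER chaperone BiP, also held the core of the unfolded protein response element, TGACGTG, which 2.01% of windows hold and which comes first in the sequence.
Hspa5 (chr2:34771840-34772089, plus strand): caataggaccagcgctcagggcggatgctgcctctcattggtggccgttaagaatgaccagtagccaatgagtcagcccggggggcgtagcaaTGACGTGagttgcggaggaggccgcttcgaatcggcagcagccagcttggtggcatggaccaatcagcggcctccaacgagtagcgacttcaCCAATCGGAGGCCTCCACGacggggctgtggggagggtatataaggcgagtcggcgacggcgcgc
Hsp90b1 (chr10:86705513-86705676, minus strand): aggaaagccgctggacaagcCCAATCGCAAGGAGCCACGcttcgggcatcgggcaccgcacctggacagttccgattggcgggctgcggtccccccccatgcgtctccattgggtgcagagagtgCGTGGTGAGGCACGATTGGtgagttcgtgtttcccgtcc
Calr (chr8:84847055-84847113, minus strand): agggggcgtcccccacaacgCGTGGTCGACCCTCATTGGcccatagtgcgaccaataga
Canx (chr11:50325780-50325838, minus strand): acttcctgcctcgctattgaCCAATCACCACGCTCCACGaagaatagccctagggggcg
Pdia6 (chr12:17266471-17266529, plus strand): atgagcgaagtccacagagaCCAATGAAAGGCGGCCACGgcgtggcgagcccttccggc
Dnajc3 (chr14:118937807-118937865, plus strand): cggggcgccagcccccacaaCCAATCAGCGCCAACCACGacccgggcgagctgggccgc
Creld2 (chr15:88819500-88819558, plus strand): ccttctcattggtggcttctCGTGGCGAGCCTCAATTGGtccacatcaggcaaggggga
Syvn1 (chr19:6046512-6046570, plus strand): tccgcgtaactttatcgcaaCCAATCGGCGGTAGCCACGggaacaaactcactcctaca
The element began 65 bases before the start site in Hspa5, 44 bases before it in Syvn1 and 162 bases before it in Calr. In Calr, Creld2 and the second element of Hsp90b1 it lay in the opposite direction, so that it is read here as CGTGG, 9 bases and ATTGG. The second ER stress element (ATTGG, 1 base, CCACG), which 0.0365% of windows hold, was present among the members only in Herpud1. The C/EBP-ATF element TGATGNAAN, through which ATF4 acts with C/EBP partners, was present in Nupr1, Trib3, Chac1, Vldlr, Asns and Herpud1, or 6 of 32 genes, against 3.95% of windows. In Herpud1, whose printed stretch holds both kinds, and in Chac1, Nupr1 and Vldlr this element lay in the opposite direction, and in Trib3 it lay 13 bases after the start site and is not printed.
Herpud1 (chr8:94386296-94386407, plus strand): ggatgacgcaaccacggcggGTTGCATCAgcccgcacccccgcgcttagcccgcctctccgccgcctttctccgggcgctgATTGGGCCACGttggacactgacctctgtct
Asns (chr6:7693210-7693252, minus strand): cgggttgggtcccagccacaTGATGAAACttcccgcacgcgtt
Chac1 (chr2:119351028-119351076, plus strand): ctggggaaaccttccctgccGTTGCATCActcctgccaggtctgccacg
Nupr1 (chr7:126625553-126625601, minus strand): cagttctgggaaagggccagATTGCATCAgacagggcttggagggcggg
Vldlr (chr19:27216799-27216847, plus strand): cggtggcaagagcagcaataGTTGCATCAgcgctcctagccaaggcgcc
These are matches of letters and not shown binding sites. The promoters are taken up again with the responses below.

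In ID8 cells, miR-200 vectors went with lower mRNA of most ER chaperones and of the ER-associated degradation genes, and with higher mRNA of some amino acid transporters and serine synthesis enzymes, while the stress transcription factors and the sensors did not pass the test. Changes were modest, with log2 fold changes of -0.88 to 0.75 among the genes that passed. With edgeR's quasi-likelihood test and a Benjamini-Hochberg adjusted p under 0.05 over all 13280 genes tested, ID8-200f cells had 6 of the 35 genes (17.1%) higher and 13 (37.1%) lower than ID8EV, and 16 were not called. Among all genes tested 17.0% were higher and 19.0% lower, so the share of members that were higher was near the background and the share that were lower was above it. The median log2 fold change of the members was -0.13, against -0.0011 over all genes tested. At the cut-off used in the study (an adjusted p under 0.01 and a change of more than 1 on the log2 scale in either direction) 0 of the 35 genes passed, against 7.41% of all genes tested. The 3 libraries of each group did not overlap in 8 genes that were higher and 14 that were lower, or 22.9% and 40.0% of the members, against 27.4% and 23.9% of all genes tested. With all 4 groups in one fit, which uses one estimate of the spread for both lines, only 2 of the 35 genes passed (both lower, Dnajb9 and Dnajc3), or 5.71%, and of all genes 7.40% passed, in place of 36.0%. RNA came from bulk cultures, in which fewer cells of a kind and less RNA per cell cannot be told apart.

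**Figure D1:**
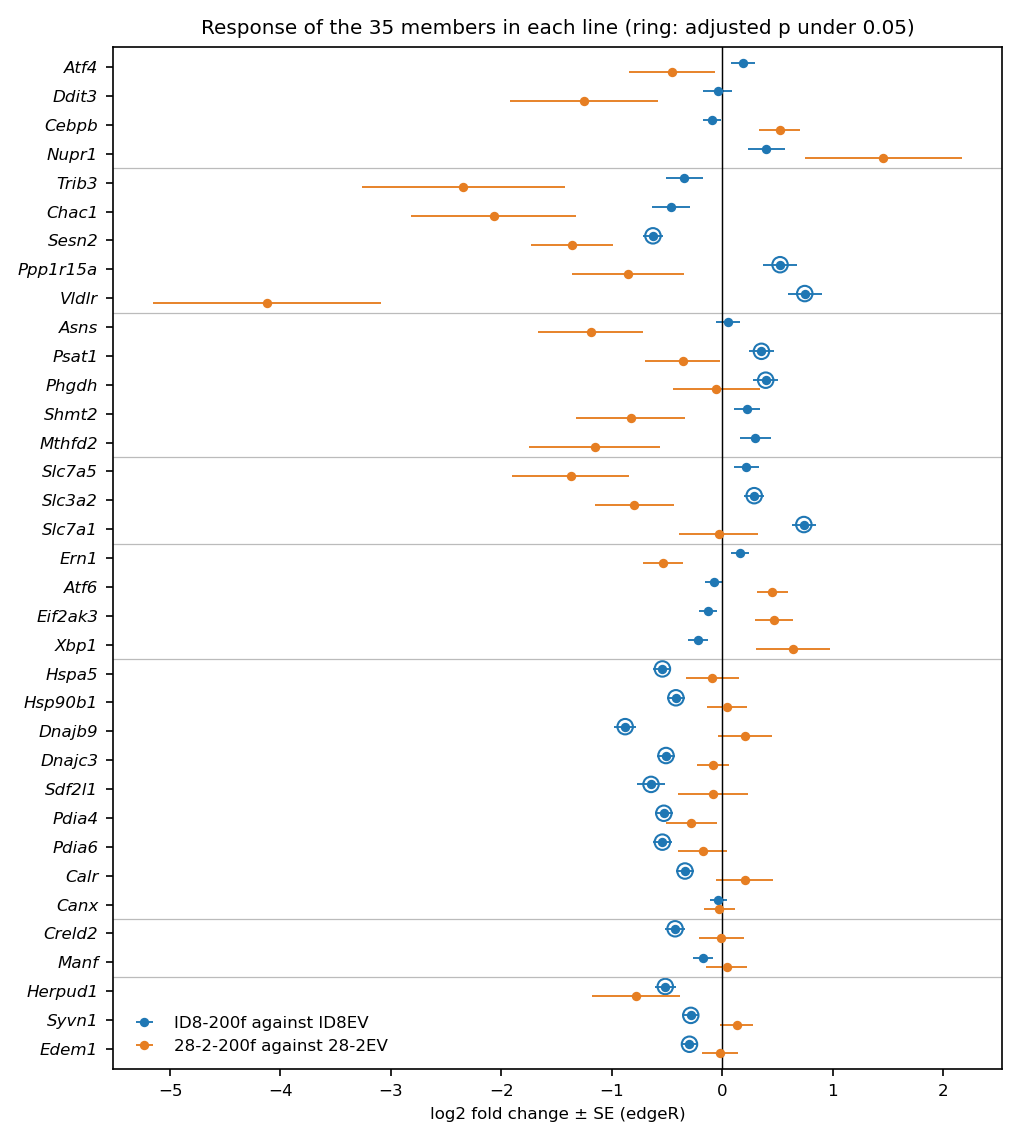
Log2 fold change with its standard error for each of the 35 genes, 200f against empty vector, in ID8 (blue) and 28-2 (orange), grouped by role between the grey lines. Rings mark an adjusted p under 0.05 from edgeR, which 19 genes reached in ID8 and 0 in 28-2, where the error bars are wider.

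Of the ER chaperones and co-chaperones, 8 of 9 were lower in ID8-200f, with 0 higher and a group median of -0.53 on the log2 scale. Among all genes tested 19.0% were lower. Hspa5 encodes BiP, the main HSP70 of the ER, which also holds the stress sensors inactive. It was measured at 1378, 1449 and 1445 CPM (normalised with TMM, as are all CPM here) in the 3 ID8EV libraries and at 991, 999.7 and 988 CPM in ID8-200f. The groups did not overlap, and the log2 fold change was -0.54 (SE 0.0811, edgeR adjusted p = 0.000189). Dnajb9, a co-chaperone of BiP, had the largest decrease of the 35 genes, with 31.0, 30.6 and 31.7 CPM in ID8EV and 17.7, 16.4 and 17.5 CPM in ID8-200f. Its log2 fold change was -0.88 (SE 0.102, edgeR adjusted p = 2.11e-05), and the lowest ID8EV library lay above the highest ID8-200f library. Sdf2l1, part of a BiP complex, fell from 50.1, 55.5 and 71.9 CPM to 40.8, 37.9 and 36.7 CPM (log2 fold change -0.64, SE 0.123, edgeR adjusted p = 0.00114). For this gene ID8EV replicate 3 stood above the other two.

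The protein disulfide isomerases, which form and reshuffle disulfide bonds, fell by about the same amount as Hspa5. Pdia4 stood at 359.6, 363 and 395 CPM in ID8EV and at 265, 261 and 260.0 CPM in ID8-200f (log2 fold change -0.53, SE 0.0791, edgeR adjusted p = 0.000187). Pdia6 stood at 322, 341 and 377 CPM and 251, 241 and 233 CPM (-0.54, SE 0.085, edgeR adjusted p = 0.000268). Neither gene overlapped between the groups. Dnajc3, a luminal co-chaperone that also inhibits PERK in some settings, was at 124, 129.9 and 127 CPM in ID8EV against 91.1, 85.3 and 95.5 CPM in ID8-200f (-0.51, SE 0.0804, edgeR adjusted p = 0.000283). Hsp90b1, the ER HSP90 known as GRP94, was at 691, 708 and 681 CPM and 535, 501 and 543 CPM (-0.42, SE 0.0798, edgeR adjusted p = 0.00114). Both were again separated between the groups. Of the lectin chaperones calreticulin and calnexin, which bind glycoproteins, the first passed the test. Calr was at 1217, 1234 and 1345 CPM in ID8EV and 1004, 1041 and 1004 CPM in ID8-200f (-0.34, SE 0.084, edgeR adjusted p = 0.00693). Canx, at 660.1, 648 and 621 CPM against 629, 633 and 648 CPM, overlapped between the groups (-0.04, SE 0.0788, edgeR adjusted p = 0.754).

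**Figure D2:**
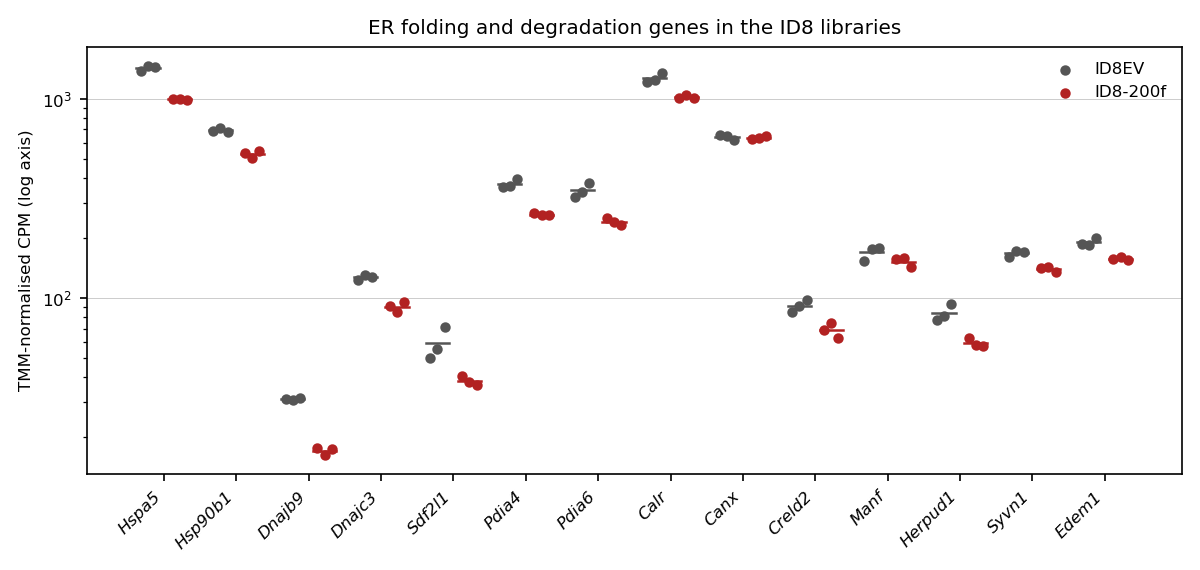
TMM-normalised CPM on a log axis of 14 ER folding, secreted and degradation genes in the 3 ID8EV (grey) and 3 ID8-200f (red) libraries, with short lines for the group means. In 12 of the 14 genes all ID8-200f points lie below all ID8EV points, the exceptions being Canx and Manf. Among all genes tested 23.9% were separated in this direction.

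All 3 ER-associated degradation genes were lower in ID8-200f as well, against 19.0% of all genes tested. Herpud1, which organises the ubiquitin ligase complex at the ER membrane, was at 77.3, 81.0 and 93.1 CPM in ID8EV and 63.2, 58.0 and 57.3 CPM in ID8-200f (log2 fold change -0.52, SE 0.0938, edgeR adjusted p = 0.000839). Syvn1, the ubiquitin ligase itself, was at 161, 172 and 171 CPM and 142, 143 and 135 CPM (-0.28, SE 0.0779, edgeR adjusted p = 0.0118). Edem1, which hands glycoproteins over for degradation, was at 186, 185 and 199.7 CPM and 156, 160.1 and 156 CPM (-0.30, SE 0.0773, edgeR adjusted p = 0.00901). The groups did not overlap for any of the 3 genes. Of the secreted ER stress proteins, Creld2 fell from 84.6, 91.3 and 97.9 CPM to 69.2, 74.7 and 62.8 CPM (-0.43, SE 0.0935, edgeR adjusted p = 0.0031). Manf, a neurotrophic factor that binds BiP, overlapped, at 153, 177 and 178 CPM against 156, 158 and 142 CPM (-0.17, edgeR adjusted p = 0.137). Without ID8EV replicate 2 the adjusted p of Syvn1 was 0.0589, and without ID8-200f replicate 3 it was 0.0643.

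Of the 8 members with an ER stress element in the promoter window, 7 were lower in ID8-200f, all but Canx, with a median log2 fold change of -0.42. The ER folding and degradation members with a window that lacked this element were lower as well. These were Dnajb9, Sdf2l1, Pdia4, Edem1 and Herpud1, of which the last held the second ER stress element. Among the genes outside the list with this element in their window, 8 were tested in ID8, of which 2 were lower and 1 was higher, with a median of -0.19. The C/EBP-ATF element went with no common direction. Of its 6 members, Vldlr was higher, Herpud1 lower and 4 were not called, and of 255 other tested genes with this element 40 were higher and 60 lower. Over all genes tested in ID8, 17.0% were higher and 19.0% lower.

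On the ATF4 side of the response, transporters and serine synthesis enzymes were higher in ID8-200f where they passed, and the feedback genes went both ways. Slc7a1, the cationic amino acid transporter CAT1 that brings in arginine and lysine, was measured at 245, 220.3 and 182 CPM in ID8EV and at 340.1, 392 and 364 CPM in ID8-200f (log2 fold change 0.74, SE 0.107, edgeR adjusted p = 0.000144). Slc3a2, the heavy chain shared by several transporters, was at 182, 179 and 158 CPM and 209.9, 235 and 199 CPM (0.29, SE 0.0912, edgeR adjusted p = 0.0237). Both rose with no overlap. Its partner Slc7a5, the leucine transporter LAT1, was at 279.8, 244 and 199.6 CPM and 271, 309.9 and 273 CPM and was not called (0.22, edgeR adjusted p = 0.147). Phgdh, the first enzyme of serine synthesis, rose from 345, 337 and 281 CPM to 407, 495 and 382 CPM (0.39, SE 0.111, edgeR adjusted p = 0.0133). Psat1, the next enzyme of that path, rose from 509, 474 and 372 CPM to 550.1, 640.0 and 568 CPM (0.36, SE 0.112, edgeR adjusted p = 0.0242). In all 8 enzymes and transporters the fold change was positive, but 4 of them passed, and of all genes tested 17.0% were higher. The mitochondrial one-carbon enzymes Shmt2 (0.23, adjusted p = 0.139) and Mthfd2 (0.30, adjusted p = 0.112) and the asparagine synthetase Asns (0.05, edgeR adjusted p = 0.731) did not. ID8EV replicate 3 was the lowest of its group in all 8 of these genes, against 38.2% of all genes tested. Without it Psat1 and Slc3a2 were no longer called, with adjusted p of 0.0725 and 0.0710 from edgeR, and Slc3a2 also lost its call without ID8EV replicate 2 (0.0527). ID8-200f replicate 2 was the highest of its group in 7 of the 8 genes (38.8% of all genes tested). Without that library the adjusted p from edgeR were 0.0826 for Psat1, 0.0545 for Phgdh and 0.0825 for Slc3a2.

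Among the feedback and effector genes, Sesn2, a stress-induced inhibitor of mTORC1, was lower in ID8-200f, at 50.0, 48.2 and 51.4 CPM in ID8EV and 34.8, 30.7 and 32.9 CPM in ID8-200f (log2 fold change -0.63, SE 0.0915, edgeR adjusted p = 0.000154). Ppp1r15a, known as GADD34, which directs the phosphatase that restores eIF2α, was higher, at 9.53, 8.43 and 10.6 CPM and 11.4, 14.8 and 15.5 CPM (0.52, SE 0.155, edgeR adjusted p = 0.0175). Vldlr, a lipoprotein receptor that ATF4 can induce, was higher, at 6.49, 5.22 and 6.17 CPM against 10.4, 9.97 and 10.1 CPM (0.75, SE 0.155, edgeR adjusted p = 0.00207). In these 3 genes the groups were separated. The pseudokinase Trib3, which dampens ATF4 (-0.34, adjusted p = 0.125), and the glutathione-degrading enzyme Chac1 (-0.46, edgeR adjusted p = 0.0527) did not pass. The call of Ppp1r15a was lost without ID8EV replicate 2 (adjusted p = 0.0809), ID8-200f replicate 2 (0.0567) or ID8-200f replicate 3 (0.0743), each from edgeR.

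None of the 4 stress transcription factors was called in ID8 (0 also with DESeq2, 1 at an unadjusted p under 0.05). Atf4 was at 316, 324 and 236 CPM in ID8EV and 348, 343 and 321 CPM in ID8-200f (log2 fold change 0.19, edgeR adjusted p = 0.199). Ddit3, which encodes the pro-apoptotic factor CHOP, was at 27.7, 31.3 and 28.1 TPM (a level scaled to gene length and library total) and 30.2, 26.8 and 25.6 TPM (-0.04, edgeR adjusted p = 0.835). Both overlapped between the groups. Cebpb, a partner of ATF4 and CHOP (-0.09, adjusted p = 0.427), and the stress-induced chromatin protein Nupr1 (0.40, edgeR adjusted p = 0.0792) likewise missed the threshold. Ddit3 stands on 2 identifiers in the files, of which one had 0 counts in every library, and it shares exon bases with the other model and with genes of the opposite strand in GENCODE M21, so its level is uncertain. Of the exon bases of Cebpb, 20.7% overlap a gene of the opposite strand, and whether the counting used strand is not given in the sources used here. The sensors and XBP1 were not called either (0 of 4, 0 with DESeq2, 1 at an unadjusted p under 0.05). Xbp1 was at 219, 239 and 240.0 CPM and 225, 185 and 199 CPM (-0.22, edgeR adjusted p = 0.0727). Log2 fold changes of Eif2ak3 (-0.13), Atf6 (-0.08) and Ern1 (0.16) were small, although the 3 libraries of each group were separated for Eif2ak3 and Ern1.

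In 28-2 cells, 0 of the 35 genes passed the same test, and on the ATF4 side 28-2EV replicate 1 stood apart from the other libraries in many genes. Of 12679 genes tested in this line, 2.26% were higher and 2.18% lower in 28-2-200f cells with edgeR, and 0.757% passed the cut-off used in the study, of which 0 were members. That cut-off gave 96 genes with this test, and the study itself reported many more for 28-2. At an unadjusted p under 0.05 there were 10 of the 35 genes (28.6%), against 20.1% of all genes. DESeq2 called 4 (11.4%), with Chac1, Sesn2 and Vldlr lower and Atf6 higher, near the background of that tool here (11.6% of all genes). The libraries of the 2 groups did not overlap in 3 genes that were higher (Cebpb, Atf6 and Eif2ak3) and 3 that were lower (Sesn2, Vldlr and Ern1), or 8.57% of the members each way, against 14.4% and 12% of all genes tested. The median log2 fold change was -0.09, against -0.01 over all genes, with 25 of 35 genes negative.

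28-2EV replicate 1 was the highest of its group for 26 of the 35 genes and the lowest for 0, whereas it was the highest for 24.8% of all genes tested. In 14 genes (40.0%) it exceeded the mean of the other two 28-2EV libraries by over 2 times, against 3.67% of all genes. These 14 were all 5 feedback and effector genes, 3 of 4 stress transcription factors, 3 of 5 enzymes, 2 of 3 transporters and, of the remaining groups, only Herpud1. Trib3 was at 287, 24.2 and 31.8 CPM in 28-2EV replicates 1, 2 and 3 and at 18.4, 31.1 and 19.3 CPM in 28-2-200f, so that only the first library stood apart, by 10.2 times. The log2 fold change of Trib3 was -2.35 (SE 0.919, edgeR adjusted p = 0.212), and without that library it was -0.31. Ddit3 had 1017, 152 and 184 counts in the 28-2EV libraries and 177, 196 and 159 in 28-2-200f, which gave a log2 fold change of -1.25 (edgeR adjusted p = 0.359) and 0.10 without replicate 1. Chac1 was at 92.7, 22.3 and 11.0 CPM in 28-2EV and 6.44, 10.7 and 13.5 CPM in 28-2-200f. Its log2 fold change of -2.07 (SE 0.746, edgeR adjusted p = 0.181) became -0.72 without 28-2EV replicate 1. Ppp1r15a showed the same library apart, at 55.4, 14.6 and 15.6 CPM against 16.2, 16.5 and 15.5 CPM, and Atf4 itself was at 1171, 658 and 356 TPM against 449, 594 and 510.3 TPM. The median SD of log2 levels in 28-2EV was 0.653 for the members and 0.299 for all genes, while in ID8EV it was 0.106 and 0.134. For Trib3, Ddit3 and Ppp1r15a the other two 28-2EV libraries overlapped with the 28-2-200f libraries. The fibroblast markers, whose summed level also varied within 28-2EV, are given above.

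**Figure D3:**
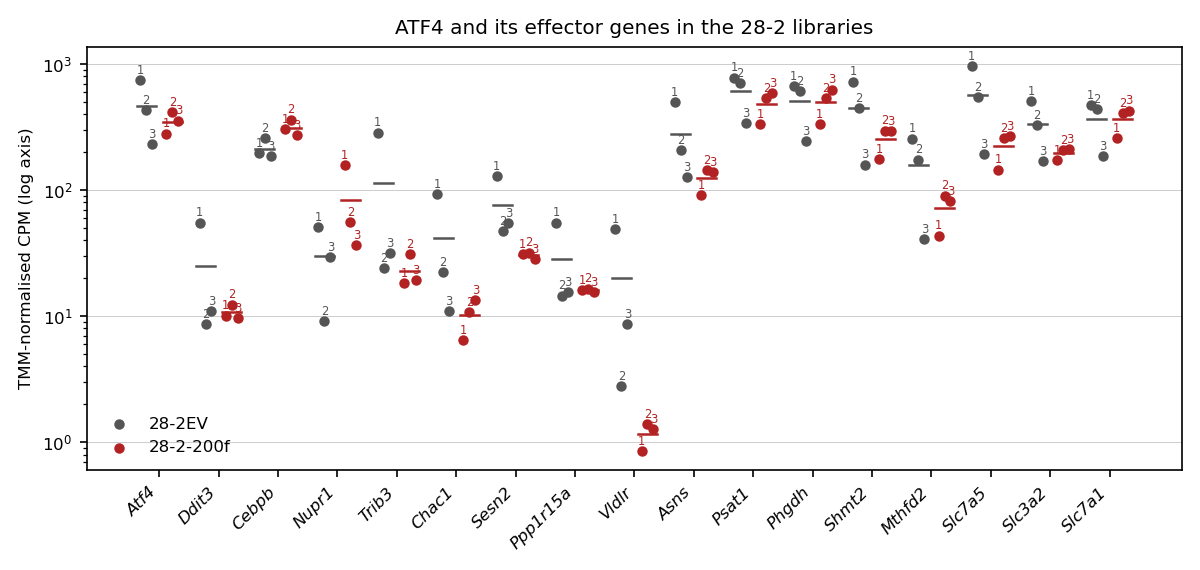
TMM-normalised CPM on a log axis of the 17 genes of the ATF4 side in the 28-2EV (grey) and 28-2-200f (red) libraries, with replicate numbers beside the points and short lines for the group means. 28-2EV replicate 1 is the highest of its group in 16 of the 17 genes, the exception being Cebpb, and reaches 963 CPM for Slc7a5.

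Within 28-2EV, replicate 1 was the highest and replicate 3 the lowest library in all 8 enzymes and transporters, against 24.8% and 34.7% of all genes tested. Asns was at 502, 207 and 128 CPM in 28-2EV and 91.3, 144 and 139 CPM in 28-2-200f (log2 fold change -1.19, SE 0.475, edgeR adjusted p = 0.221). Slc7a5 was at 963, 549 and 192 CPM and 146, 258 and 267 CPM (-1.37, SE 0.534, edgeR adjusted p = 0.208). Mthfd2 was at 256, 175 and 41.1 CPM and 43.6, 90.8 and 82.1 CPM (-1.15, SE 0.595, edgeR adjusted p = 0.338). In each, the 28-2-200f libraries fell within or below the range of 28-2EV. Without 28-2EV replicate 1 the log2 fold changes were -0.44 for Asns, -0.74 for Slc7a5 and -0.59 for Mthfd2. 28-2-200f replicate 1 was the lowest of its group in all 8 of these genes and in 26 of the 35 members, against 38.9% of all genes tested. 28-2-200f replicate 2 was the highest in 24 members, against 24.6% of all genes tested. Shmt2 (726, 449.6 and 159.6 CPM in 28-2EV, 176, 297 and 294 CPM in 28-2-200f) and Slc3a2 (511, 329 and 170.1 CPM, 174, 208 and 212 CPM) were of the same kind. Log2 fold changes of Phgdh (-0.05, SE 0.392), Psat1 (-0.36, SE 0.343) and Slc7a1 (-0.03, SE 0.358) were within or near 1 SE of 0.

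Sesn2 and Vldlr were the members in 28-2 closest to the threshold, and in both the groups did not overlap. Sesn2 was at 129, 47.6 and 54.7 CPM in 28-2EV and 31.3, 31.9 and 28.4 CPM in 28-2-200f (log2 fold change -1.36, SE 0.371, edgeR adjusted p = 0.0902), and without 28-2EV replicate 1 the change was -0.76. Vldlr was at 48.8, 2.81 and 8.69 CPM in 28-2EV and 0.855, 1.39 and 1.28 CPM in 28-2-200f (-4.12, SE 1.03, edgeR adjusted p = 0.0713), and -2.31 without that library. Every 28-2-200f library thus lay below every 28-2EV library for these genes. That separation does not rest on replicate 1, which was the highest of 28-2EV in both, but the size of the fold change does. Without 28-2EV replicate 2, 4 members were called (Cebpb higher, and Sesn2, Vldlr and Herpud1 lower), or 11.4%, against 10.5% of all genes in that fit. Without 28-2EV replicate 1, 16 of the 35 fold changes were negative and their median was 0.07.

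28-2EV replicate 1 exceeded the mean of the other 28-2EV libraries by over 2 times in 0 of 4 genes for the sensors and XBP1. That library did so in 0 of the 9 ER chaperones, although it was the highest of its group in 6 of the 9. Ern1 was at 181, 217 and 147 CPM in 28-2EV and 112, 137 and 135 CPM in 28-2-200f (log2 fold change -0.53, SE 0.178, edgeR adjusted p = 0.15). Atf6 was at 146, 166 and 141 CPM and 205, 193 and 235 CPM (0.45, SE 0.142, edgeR adjusted p = 0.129). Eif2ak3 was at 47.0, 37.3 and 50.9 CPM and 68.4, 65.3 and 57.2 CPM (0.47, SE 0.169, edgeR adjusted p = 0.182). These 3 genes were separated between the groups, and all 3 passed with all 4 groups in one fit. That fit called 8 of the 35 members (22.9%) and 17.1% of all genes in 28-2. Of the 9 chaperones, 6 had negative and 3 positive fold changes, between -0.28 for Pdia4 (SE 0.232) and 0.21 for Dnajb9 (SE 0.246). Hspa5 was at 1257, 734 and 959 CPM in 28-2EV and 823, 1129 and 877 CPM in 28-2-200f (-0.09, SE 0.24, edgeR adjusted p = 0.875). 28-2EV replicate 2 was the lowest of its group in 8 of the 9 chaperones (41.2% of all genes tested). 28-2-200f replicate 2 was the highest in 8 (24.6% of all genes tested). Nupr1 had the largest positive fold change, 1.46 (SE 0.709, edgeR adjusted p = 0.31), with 51.1, 9.11 and 29.3 CPM in 28-2EV and 158, 55.8 and 36.7 CPM in 28-2-200f, and overlapped. Its fold change rests on single libraries, being 0.61 without 28-2-200f replicate 1 and 2.10 without 28-2EV replicate 1.

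**Figure D4:**
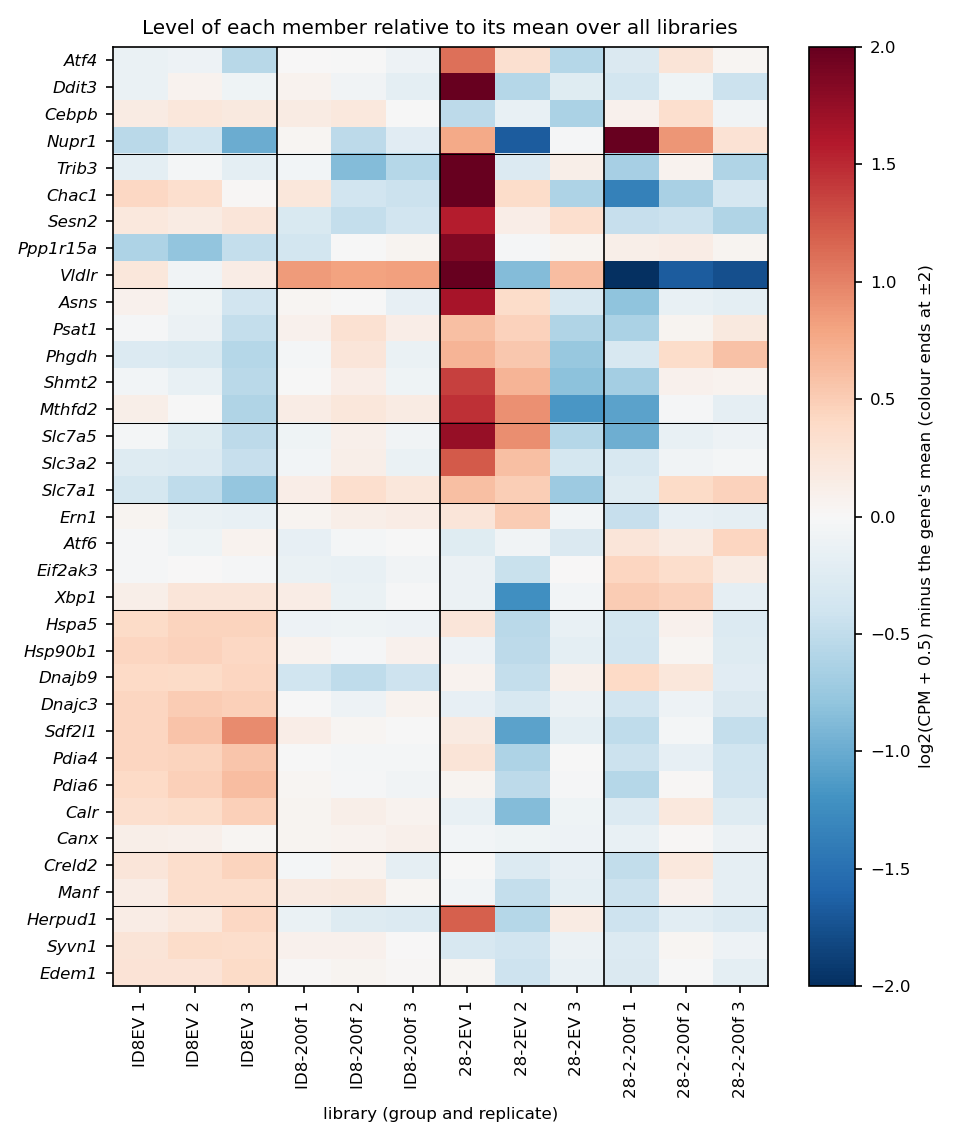
Level of the 35 genes (rows, by role) in the 12 libraries (columns) as log2(CPM + 0.5) minus the gene's mean over all libraries, with red above and blue below the mean and colours ending at ±2. The ER chaperone block is red in the 3 ID8EV libraries, and the genes of the ATF4 side apart from Cebpb are red in 28-2EV replicate 1.

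The difference between the lines in the response to the 200f vectors was tested directly as an interaction over 12 libraries. Of 13620 genes tested, 2.26% had a higher and 0.712% a lower response in 28-2 than in ID8, and of the members 1 each way passed. Vldlr rose in ID8 and had a negative fold change in 28-2, a difference of -4.87 on the log2 scale (SE 1.08, edgeR adjusted p = 0.0317). Dnajb9 fell in ID8 and had a log2 fold change of 0.21 in 28-2, a difference of 1.09 (SE 0.26, edgeR adjusted p = 0.044). Leaving out any one of the ID8 libraries ended both calls, with adjusted p of 0.0708 to 0.0903 for Vldlr and 0.0987 to 0.136 for Dnajb9 from edgeR. All 9 chaperones had a positive difference, with a median of 0.46, and all 8 enzymes and transporters and all 5 feedback genes a negative one, with medians of -1.05, -1.08 and -1.60 in the enzymes, transporters and feedback genes. The interaction uses the same libraries as the comparisons within each line, so these directions are no further evidence. DESeq2 called 5 members (14.3%, against 6.75% of all genes) and limma on log2(TPM + 1) called 0 (3.20% of all genes).

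Between the empty vector lines, all 28-2EV libraries lay below all ID8EV libraries in each of the 9 ER chaperones, although only 1 member passed the test. Among the 35 genes, Dnajc3 was lower in 28-2EV, at 81.5, 72.7 and 83.9 CPM against 124, 129.9 and 127 CPM in ID8EV (log2 fold change -0.67, SE 0.114, edgeR adjusted p = 0.0219), and 0 were higher, against 2.52% lower and 0.887% higher of 13073 genes tested. That call was lost when any one ID8EV library or 28-2EV replicate 1 was left out. The libraries of the 2 lines did not overlap in 15 members that were lower (42.9%) and in 1 that was higher (2.86%), against 14.6% and 9.91% of all genes tested. The 15 were all 9 ER chaperones, both secreted proteins, Syvn1, Edem1, Cebpb and Xbp1, and the 1 that was higher was Ppp1r15a. Hsp90b1 (-0.70, adjusted p = 0.0543) and Syvn1 (-0.59, edgeR adjusted p = 0.0503) were next to the threshold, and the median of the chaperones was -0.63. At an unadjusted p under 0.05 there were 18 of the 35 genes (51.4%), against 16.6% of all genes, and DESeq2 called 9 (25.7%), against 8.10%. For Hsp90b1 the values were 477, 354 and 447 CPM in 28-2EV and 691, 708 and 681 CPM in ID8EV, and for Calr 869, 525 and 909.9 CPM and 1217, 1234 and 1345 CPM, with 28-2EV replicate 2 the lowest library in both. Without 28-2EV replicate 2 the test called 10 members (28.6%, against 10.3% of all genes), and without 28-2EV replicate 3 it called 8 (22.9%, against 5.71%).

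Levels were compared between genes in TPM, which correct for length. By group means Calr and Hspa5 were the most abundant of the 35 genes in every group, with means of 1712 ± 87.3 and 1312 ± 20.9 TPM in ID8EV (SD, n = 3) and of 971 ± 274 and 848 ± 240.3 TPM in 28-2EV. Single libraries of 28-2 differed from this order, with Atf4 first in 28-2EV replicate 1, Phgdh and Atf4 above both genes in 28-2EV replicate 2, and Cebpb or Phgdh above Hspa5 in 28-2-200f replicates 1 and 3. Vldlr was the lowest in every group, at 2.31 ± 0.281 TPM in ID8EV and 0.405 ± 0.0762 TPM in 28-2-200f. After Calr and Hspa5, Cebpb was next in ID8EV at 848 ± 6.73 TPM and ranked 8 in 28-2EV at 517 ± 90.3 TPM. In 28-2EV, Phgdh (745 ± 341 TPM), Atf4 (729 ± 412 TPM), Slc7a5 (560.5 ± 388 TPM), Psat1 (524 ± 207 TPM) and Shmt2 (524 ± 340.3 TPM) stood next after Hspa5, in an order that does not hold beyond their SDs.

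Other genes of the pathway were described from 7 lists that hold no member. Of 110 such genes tested, 21 (19.1%) were higher and 17 (15.5%) lower in ID8-200f (edgeR, adjusted p under 0.05), near the 17.0% and 19.0% of all genes tested, with a median log2 fold change of 0.0020. Among 20 cytosolic tRNA synthetases, which charge tRNAs and several of which ATF4 induces, 10 (50.0%) were higher and 0 lower (0 lower also with DESeq2; the median was 0.24). Wars1 rose from 63.9, 59.9 and 57.6 CPM to 88.9, 105 and 94.2 CPM (log2 fold change 0.65, edgeR adjusted p = 0.000112), and Iars1 from 214, 193 and 172 CPM to 288, 316 and 303 CPM (0.63, edgeR adjusted p = 0.000162). Farsa (0.44) and Mars1 (0.40) followed by adjusted p. In 18 of the 20 synthetases ID8EV replicate 3 was the lowest of its group, against 38.2% of all genes tested. In 16 of them ID8-200f replicate 2 was the highest of its group, against 38.8% of all genes tested. Of 12 genes for eIF2, its kinases and its exchange factor eIF2B, with Ppp1r15b, Dele1 and Impact, 5 (41.7%) were higher and 2 (16.7%) lower. Eif2s1, which encodes eIF2α, rose from 86.7, 85.0 and 66.7 CPM to 123, 144 and 132 CPM (0.72, edgeR adjusted p = 0.000163). The eIF2B subunits Eif2b5 (0.46), Eif2b2 (0.46) and Eif2b3 (0.64) were also higher, whereas Eif2ak4, the amino acid sensing kinase GCN2 (-0.30), and its inhibitor Impact (-0.27) were lower. For these 12 genes ID8EV replicate 3 was the lowest of its group in 9 and ID8-200f replicate 2 the highest in 8.

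Of 19 other ATF4 target genes tested in ID8, 4 (21.1%) were higher and 2 (10.5%) lower, neither share far above that of all genes (17.0% and 19.0%). Atf3, a transcription factor of the stress response, rose from 3.95, 4.17 and 4.64 CPM to 8.27, 7.79 and 8.85 CPM (log2 fold change 0.94, edgeR adjusted p = 0.000725), and the mitochondrial protease Lonp1 from 158, 160.5 and 156 CPM to 213, 248 and 226 CPM (0.51, edgeR adjusted p = 0.000327). The mitochondrial folate enzyme Mthfd1l (0.47) and the tRNA exporter Xpot (0.36) were higher too. Ddit4, an inhibitor of mTORC1 (-0.58), and the alanine transaminase Gpt2 (-0.40) were lower. Of 18 other ER folding genes, 5 (27.8%) were lower and 0 higher (0 higher also with DESeq2), among them Fkbp14 (-0.67), Pdia3 (-0.43), Hspa13 (-0.36) and Dnajc1 (-0.30). Among 14 other ER-associated degradation genes, Derl3, a derlin of the ER membrane, fell from a mean of 9.47 ± 3.35 CPM to 1.93 ± 0.51 CPM (SD, n = 3) (-2.31, SE 0.273, edgeR adjusted p = 2.44e-05), a larger change than that of any member in ID8. In all, 3 of these 14 genes (21.4%) were lower and 1 (7.14%) higher. Derl1 (-0.30) and Edem2 (-0.27) were lower and Nploc4 (0.34) was higher. Of 19 translocation and vesicle transport genes, 3 (15.8%, below the share of all genes) were lower, the signal peptidase subunits Spcs1 (-0.51), Spcs2 (-0.32) and Spcs3 (-0.25), and the translocon-associated Ssr1 was higher (0.44). Of 8 stress transducers of the CREB3 and ATF6 families, 2 (25.0%, near the 19.0% of all genes) were lower and 0 were higher (0 also with DESeq2). These were Crebrf (-1.01, SE 0.188) and Creb3l1 (-1.61, SE 0.550, edgeR adjusted p = 0.0352).

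In 28-2, 0 of 109 other pathway genes tested were called with edgeR (18 or 16.5% at an unadjusted p under 0.05, and 6 or 5.5% with DESeq2, both below the shares of all genes). 28-2EV replicate 1 was the highest of its group in 19 of 19 other ATF4 target genes, against 24.8% of all genes tested. Its median excess there over the other 28-2EV libraries was 1.38 on the log2 scale. It was also the highest in 13 of 20 tRNA synthetases (65%), 6 of 18 other ER folding genes (33.3%) and 1 of 12 genes of the eIF2 list (8.33%). The synthetases had 28-2EV replicate 3 as the lowest library in 19 of 20, against 34.7% of all genes tested. Atf5, a relative of ATF4 that ATF4 induces, was at 208, 89.5 and 88.2 CPM in 28-2EV and 35.9, 48.3 and 57.9 CPM in 28-2-200f. The cystine transporter Slc7a11 was at 113, 32.8 and 24.3 CPM and 19.3, 29.8 and 18.0 CPM. Both were chosen after their values were seen, and in both the excess lay in the same library as in Trib3 and Chac1. The share of counts from mitochondrial transcripts in that library, 1.45%, was the lowest of its group (up to 2.38%), and the 50 most abundant genes took 11.2% of its counts, against 10.8% to 13.8% over all libraries.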

How the data were processed

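RNA from 12 samples was sequenced as paired ends. Per the methods, reads were trimmed with BBDuk and aligned with STAR in the Genialis 3.0 pipeline. Per the submitters' processing notes, the deposited counts per gene came from featureCounts on GRCm39, and the authors also deposited TPM and CPM. The strand setting, tool versions and annotation release are not given in the sources used here. Groups came from the labels. The deposited counts were tested with edgeR 4.0.16 (R 4.3.3, quasi-likelihood, TMM, a minimum count of 10 and total of 15 in filterByExpr), with p-values adjusted by Benjamini-Hochberg over all genes tested. Printed CPM were computed from the counts with TMM over all 12 libraries, and TPM are as the authors deposited them. DESeq2 1.42.0, limma 3.58.1 on log2(TPM + 1), other scalings and filters, a replicate block and leaving out each library were alternatives. Tests were tried on simulated counts. Named genes were all 35 members and, per pathway list, direction and line, up to 4 genes by smallest adjusted p. Members and lists were chosen with earlier results of these data known. Sequences came from RefSeq GRCm38.p6, a different build from that of the counts, so no coordinate was joined to a count. The summed level of the immune markers is not reported here.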

Additional observations from a re-analysis of the deposited data

Results flagged for a closer look

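In 3 genes the response to the 200f vectors differed between the lines by the test of the difference itself (edgeR interaction term, Benjamini-Hochberg adjusted p under 0.05). For Vldlr the response in 28-2 was lower than in ID8, with a difference of -4.87 on the log2 scale (SE 1.08, adjusted p = 0.0317 by edgeR). For Dnajb9 it was higher by 1.09 (SE 0.260, adjusted p = 0.0440 by edgeR). For Edem3, an ER-associated degradation gene outside the 35 members, it was higher by 0.74 (SE 0.167, adjusted p = 0.0341 by edgeR), with log2 fold changes of -0.21 in ID8 and 0.53 in 28-2. Each call was lost under most of 19 alternatives, 11 for Vldlr, 12 for Dnajb9 and 11 for Edem3, with adjusted p of up to 0.154, 0.136 and 0.122. Leaving out any one ID8 library ended all 3 calls, limma and the replicate block ended those of Vldlr and Dnajb9, and no direction reversed.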

How the results depend on the processing

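No direction of a called member reversed. In ID8, 19 members were called, 16 to 22 when a library was left out, and 2 (Dnajb9 and Dnajc3) with all 4 groups in one fit, and these 2 genes were called under every alternative. Of the other pathway genes 38 were called, 28 to 41 when a library was left out and 3 with all 4 groups in one fit. Calls lost by leaving out a library were those of Phgdh, Ppp1r15a, Psat1, Slc3a2 and Syvn1, and Psat1 was also lost with limma. In 28-2, 0 members were called, 4 with DESeq2, 5 with no filter on low counts, 8 with all 4 groups in one fit and 0 to 4 when a library was left out (4 without 28-2EV replicate 2). For the other pathway genes in 28-2 these counts were 0, 6, 4, 13 and 0 to 8, the last without the same library. For the difference between the lines, 2 members were called, 5 with DESeq2, 1 with library size scaling, 11 with no filter, 0 with limma and 0 to 10 when a library was left out (10 without 28-2EV replicate 3, 4 without 28-2EV replicate 2, 1 without 28-2EV replicate 1 or 28-2-200f replicate 3 and 0 without any other). Between the empty vector lines, 1 was called, 9 with DESeq2, 2 with library size scaling, 7 with no filter, 2 with a filter of 1 CPM in 3 libraries, 4 with limma, 9 with all 4 groups in one fit and 0 to 10 when a library was left out (10 without 28-2EV replicate 2, 8 without 28-2EV replicate 3 and 0 without any other). The shares of all genes moved too, in 28-2 from 4.45% to 11.6% with DESeq2, 4.35% with no filter, 17.1% with all 4 groups in one fit and 10.5% without 28-2EV replicate 2 (11.4%, 14.3%, 22.9% and 11.4% of the members). In ID8 all 4 groups in one fit called 7.40% of all genes, in place of 36.0%. The cause of these changes was not tested.

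The deviations of same-numbered samples correlated across genes at -0.19, 0.083 and -0.039 in ID8 and at 0.25, 0.16 and -0.39 in 28-2. Those of samples with different numbers correlated at -0.14 to 0.20 in ID8 and at -0.58 to 0.56 in 28-2. Same-numbered samples thus did not stand above the others, but this cannot show whether samples were handled in pairs. With the replicate block, 20 members were called in ID8 and 0 in 28-2, 0 for the difference between the lines and 0 between the empty vector lines. The standard error of a log2 fold change reached 1.03 in 28-2 (Vldlr), and total counts were similar in both lines.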
